A study of Macaca fascicularis with 1154 samples.

Results

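Cells picked singly from cultured embryos of the cynomolgus monkey, Macaca fascicularis, were compared between day 17 and days 19 and 20. The day and the collection were read from the sample titles, in which E17, E19 or E20 is followed by a number after the letter B. The collections E17 B1, E17 B4 and E17 B5 formed the day 17 arm, and E19 B1, E19 B2, E20 B1 and E20 B2 formed the later arm. Cells were kept when they had at least 100000 counts and 2000 detected gene IDs. The titles give 464 cells for these collections, of which 290 had values and 174 were not analysed here. The rule kept 285 of the 290, 139 from day 17 and 146 from days 19 and 20, out of 593 kept cells of all 15 collections with values. In the whole series 600 of 1154 samples, each 1 cell, had values at hand, and the cells of a further day 17 collection, E17 B3, were among those not analysed here.

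Embryos were taken apart with trypsin, cells were picked by mouth pipette, and libraries were made with SMART-seq2, a full-length RNA protocol for single cells, for the BGISEQ-500 sequencer. No genotype, treatment or sex is given in the labels, and every cell carries the same tissue label, embryo. The labels do not say what the B number stands for or that collections came from separate embryos, so the p-values speak only to how far these collections spread, and that spread may be technical. In the primate embryo this stage spans the onset and course of gastrulation, when epiblast cells pass through the primitive streak and form mesoderm and endoderm. The amnion, the yolk sac, the extraembryonic mesenchyme and the trophoblast, which leads to the placenta, lie around the embryonic disc. Series text states the aim as finding what sets the embryonic and extraembryonic lineages.

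The deposited table names its 28592 rows by Ensembl-type IDs, and 0 of them were found in the gene table at hand. The 10 lists of markers for epiblast, amnion, trophoblast, endoderm, mesenchyme, gastrulating, germ, blood and endothelial, stressed and dividing cells (65 symbols) could therefore not be used, and the labelled tissue could not be checked against markers. Genes are given below by ID, with no function attached. Each ID was counted in whole collections, so fewer cells of a type and less RNA per cell cannot be told apart in a sum. The percent of cells with a count is therefore given for the leading IDs of the comparison of the arms, with and without E17 B1. For the other comparisons it is given for some of the IDs.

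Depth differed widely between collections. Kept cells numbered 37 in E17 B1, 31 in E17 B4, 71 in E17 B5, 51 in E19 B1, 11 in E19 B2, 63 in E20 B1 and 21 in E20 B2. Summed counts ran from 14136562 in E19 B2 to 325088607 in E20 B1. The median cell had 583696 counts in E19 B2, 860532 in E17 B1 and between 2143767 and 5807255 in the other 5. E19 B2 has 96 cells by its titles, of which 81 were not analysed here, and the cell rule left out 4 of the other 15. E17 B1 was the only collection whose titles are written with dots and a letter p, so every comparison of the arms was repeated without it. No 2 cells held identical values.

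With the 3 day 17 collections set against the 4 later ones, no ID passed edgeR's quasi-likelihood test at an adjusted p of 0.05 among 14125 IDs tested (0 called, 0%). The 4 leading IDs described below had log2 fold changes between −5.54 and 4.16, with standard errors of 0.62 to 1.56. An unadjusted p under 0.05 was reached by 203 IDs (1.44% of those tested), 80 of them higher and 123 lower on days 19 and 20, where 706 would be reached by chance. The balance of directions at that threshold depended on the method, with 57 higher and 173 lower by total counts, 167 and 632 with no filter, 21 and 596 by limma, and 275 and 226 by DESeq2. limma on the mean log2(CPM + 1) of the cells also called 0 IDs, and DESeq2 called 26 (0.184%), which are described further on. The normalised levels of the collections did not overlap for 156 IDs that were higher later (1.1%) and for 403 that were lower later (2.85%). A random order of 3 against 4 collections without ties would part the arms, in either direction, with a probability of 0.0571 per ID. The excess of lower over higher IDs was not tested. The median log2 fold change over all IDs was 0.02 with TMM scaling, 0.09 with RLE factors and −0.12 with total counts.

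The 2 higher and 2 lower IDs with the smallest unadjusted p, among abundant IDs whose collections did not overlap, are described first. None of them passed the test, with edgeR adjusted p of 1.00 each. ENSMFAG00000032414 was at 3.70, 4.16 and 4.84 CPM, the counts scaled by library size and TMM factor, in E17 B1, E17 B4 and E17 B5. In the later arm it was at 10.8 CPM in E19 B1, 157 in E19 B2, 86.2 in E20 B1 and 48.9 in E20 B2. The day 17 collections lay close together and all below the later ones, which were spread widely. In E17 B4, however, 1 cell held 100% of the ID's counts. Its mean was 4.23 ± 0.577 CPM (SD, n = 3) on day 17 and 75.7 ± 62.4 CPM (SD, n = 4) later, and its log2 fold change in edgeR was 4.16 ± 0.94 (SE). Leaving out any 1 collection moved that value between 3.52 and 4.53. DESeq2 gave 4.29 ± 0.89 with an adjusted p of 0.0017, and edgeR's adjusted p ranged from 0.791 to 1.00 over its alternatives.

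ENSMFAG00000030825 was the other higher ID. It stood at 61.2, 201 and 60.8 CPM in E17 B1, E17 B4 and E17 B5, and at 566, 376, 273 and 485 CPM in E19 B1, E19 B2, E20 B1 and E20 B2. Of the day 17 collections E17 B4 was nearest to the later arm, whose lowest value was that of E20 B1. From day 17 to the later arm it was higher by a log2 fold change of 1.98 ± 0.62 (SE).

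Of the lower IDs, ENSMFAG00000034060 was at 280 CPM in E17 B1, 52.0 in E17 B4 and 51.0 in E17 B5. It was at 13.4, 17.6, 31.4 and 12.9 CPM in E19 B1, E19 B2, E20 B1 and E20 B2. E17 B1 stood far above the other collections of its day, and without it the log2 fold change went from −2.76 ± 0.75 to −1.46 ± 0.73 (SE). ENSMFAG00000032669 was at 14.3, 492 and 86.7 CPM on day 17, with E17 B4 the highest. It was at 7.98 CPM in E19 B1, 0 in E19 B2, 4.72 in E20 B1 and 4.18 in E20 B2. This gave a log2 fold change of −5.54 ± 1.56, and −3.57 ± 1.55 without E17 B4, where 1 cell held 62.1% of the ID's counts.

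**Figure D1:**
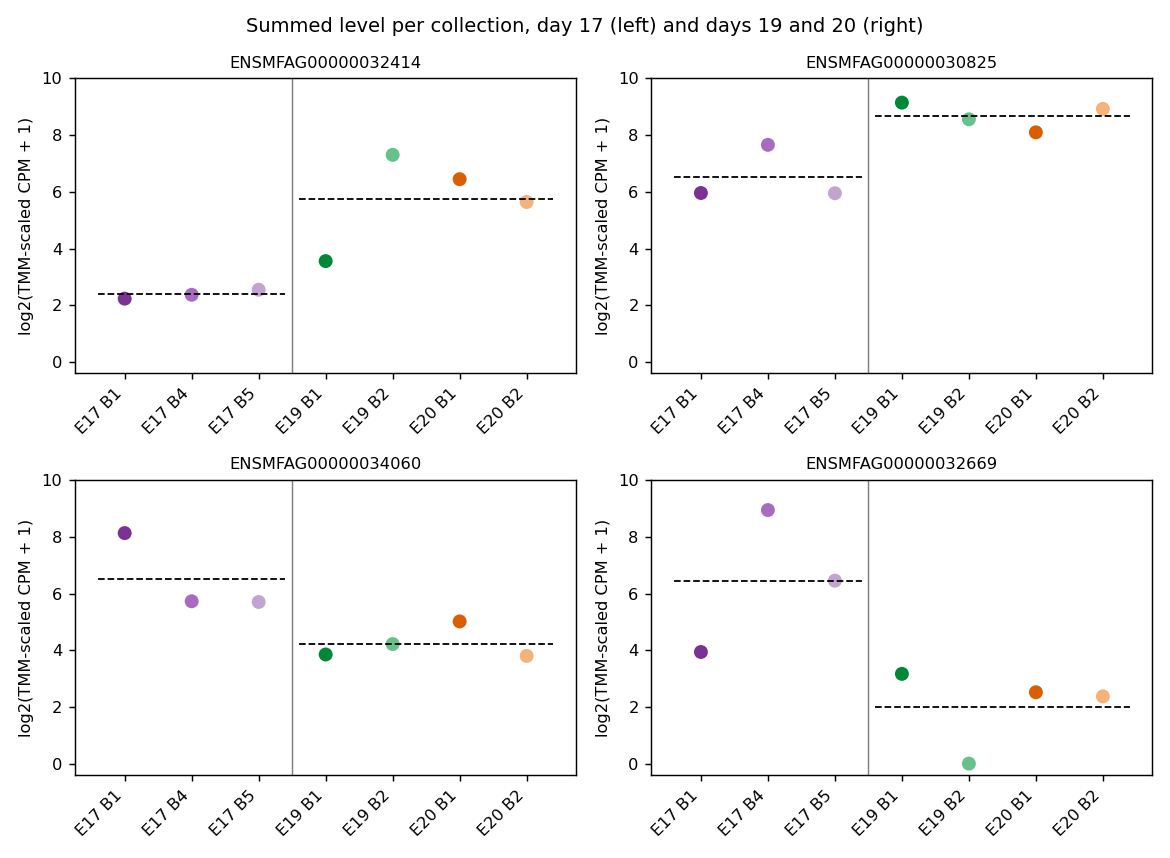
Summed level of 4 IDs, as log2(TMM-scaled CPM + 1), in each of the 3 day 17 collections (left of the grey line) and the 4 collections of days 19 and 20 (right). Points are collections and dashed lines are the means of the plotted values per arm. For each ID the arms do not overlap, which was one of the conditions for choosing it, and E17 B1 for ENSMFAG00000034060 and E17 B4 for ENSMFAG00000032669 stand above the rest of day 17.

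The cells behind these sums were uneven. A cell was called positive when it had at least 1 count after every cell had been thinned to 100000 counts. For ENSMFAG00000032414 the positive cells were 5.41%, 3.23% and 9.86% of E17 B1, E17 B4 and E17 B5. They were 5.88% of E19 B1, 72.7% of E19 B2, 38.1% of E20 B1 and 14.3% of E20 B2. E19 B1 thus lay within the day 17 range by its share of cells, and 1 of its cells held 73.5% of its counts. The top cell held 52.1% of the counts in E17 B1, 100% in E17 B4 and 32.1% in E17 B5. It held 57.9% in E19 B2, 23.2% in E20 B1 and 54.9% in E20 B2. Without thinning, the shares were 16.2%, 3.23% and 25.4% on day 17 and 29.4%, 90.9%, 81.0% and 57.1% later. ENSMFAG00000034060 was positive in 94.6%, 19.4% and 56.3% of the cells on day 17. Later it was positive in 7.84%, 27.3%, 41.3% and 23.8%, so that E17 B4 fell among the later collections.

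ENSMFAG00000032669 was positive in 21.6%, 19.4% and 63.4% of the day 17 cells. It was positive in 9.80% of E19 B1, 6.35% of E20 B1 and 4.76% of E20 B2. It was in 0 of 11 cells of E19 B2, which allows a share of up to 27.3%. That limit lies above the shares of E17 B1 and E17 B4 and below that of E17 B5.

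Without E17 B1 the comparison stood at 2 against 4 collections, all of the same title style, and again no ID passed edgeR's test among 15114 (0 called, 0%). An unadjusted p under 0.05 was reached by 224 IDs (1.48%), 56 higher and 168 lower later, against 756 by chance. limma gave 7 higher and 400 lower at that threshold, and DESeq2 372 higher and 196 lower. limma called 0 IDs and DESeq2 called 101 (0.668%). Normalised levels did not overlap for 297 IDs higher later (1.97%) and 908 lower later (6.01%). With 2 against 4 collections a random order parts the arms more often, so these counts cannot be set directly beside those with E17 B1. Why they were higher was not tested. ENSMFAG00000032414 had a log2 fold change of 4.06 ± 1.19 here and ENSMFAG00000032669 one of −6.10 ± 1.52 (SE). Neither passed in edgeR, and their DESeq2 adjusted p values were 0.0231 and 0.0282. The other higher ID was ENSMFAG00000035516, at 11.7 and 8.78 CPM in E17 B4 and E17 B5 and at 114, 266, 66.1 and 32.6 CPM in the later arm, with E19 B2 the highest. It was higher later by a log2 fold change of 3.55 ± 1.04 (SE; edgeR adjusted p = 1.00, DESeq2 adjusted p = 0.0413). It was positive in 9.68% and 9.86% of the cells on day 17, and in 25.49%, 54.55%, 41.27% and 19.05% of those of the later collections. ENSMFAG00000006822 was at 133 and 167 CPM on day 17 and at 9.22, 46.1, 29.2 and 18.1 CPM later. That is a log2 fold change of −2.55 ± 0.72 (SE), with an edgeR adjusted p of 1.00 and a DESeq2 adjusted p of 0.435. It was positive in 48.4% and 83.1% of the cells on day 17, and in 15.7%, 18.2%, 44.4% and 28.6% of those of the later collections.

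DESeq2's 26 calls, 10 higher and 16 lower later, were examined for how their counts were spread. All 26 had an unadjusted edgeR p under 0.05, and the smallest fold change among them was 3.41 in size on the log2 scale. More than 50% of the depth-scaled signal lay in 1 collection for 21 of the 26, against 21.3% of all IDs tested. More than 50% of the counts came from 1 cell for 13 of them, against 7.69% of all IDs tested. Depth-scaled levels of the collections did not overlap between the arms for 23 of the 26. By TMM-scaled levels that held for 1.1% of all IDs tested as higher later and for 2.85% as lower later. The calls were made on these same values. Day 17 held no count of 3 of the called IDs, and days 19 and 20 held none of 5. For the 101 calls made without E17 B1, 87 had most of their signal in 1 collection, 53 had most of their counts in 1 cell, 35 had no count on day 17 and 17 had none later. An unadjusted edgeR p under 0.05 was reached by 73 of the 101. Depth-scaled levels did not overlap for 61 of them. By TMM-scaled levels that held for 1.97% of all IDs tested there as higher later and for 6.01% as lower later. For most of these calls the signal thus came mainly from 1 collection. The shares of all IDs tested for most signal in 1 collection or most counts in 1 cell belong to the comparison with E17 B1. None were taken for the one without it. No share of all IDs was taken for an absence of counts in an arm either. Whether the 101 calls stood out from all IDs by 1 collection or 1 cell was therefore not tested. The same holds for the calls with no count in an arm. Among the 4101 IDs whose mean log2 CPM was 5 or more, most of the signal lay in 1 collection for 5.15% and most counts in 1 cell for 0.244%.

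IDs with counts in all collections of 1 arm and in none of the other were few. Of 19705 IDs with a count, 63 were present in every day 17 collection and absent from all later ones, and 4 showed the reverse. Their sums were low, at most 5321 counts over day 17 and 5861 over days 19 and 20. Without E17 B1 the numbers were 222 and 8, and without E19 B2, the shallowest collection, 84 and 11.

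The percent of positive cells was compared for each of 17577 IDs as a description, since an exact test of 3 against 4 collections cannot go below a p of 0.0571. The shares did not overlap between the arms for 20 IDs that were higher later (0.114%) and for 540 that were lower later (3.07%). A random order without ties would part the arms, in either direction, with that probability of 0.0571 per ID. The excess of lower over higher IDs was not tested. Both counts moved with single collections. Without E17 B4 the IDs with lower shares later numbered 4078 of 17407 (23.4%), and those with higher shares 41 (0.236%). Without E17 B1 they were 871 lower (5.06%) and 77 higher (0.447%) of 17225. The number of IDs detected per cell at the same depth of 100000 counts moved with this. Its median was 4856 in E17 B1, 3053 in E17 B4 and 4814 in E17 B5, and 2246, 2970, 3926 and 3952 in E19 B1, E19 B2, E20 B1 and E20 B2. E17 B4 thus lay within the later range and the other day 17 collections above it, and the part of this measure in the counts of IDs was not tested.

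The 2 IDs with the widest gap in each direction are given next. A gap of at least 10 percentage points was found for 15 IDs lower later and for 2 higher later. ENSMFAG00000045681 was positive in 73.0% of E17 B1, 48.4% of E17 B4 and 78.9% of E17 B5, and in 5.88% of E19 B1, 0% of E19 B2, 31.7% of E20 B1 and 28.6% of E20 B2. The nearest collections of the arms, E17 B4 and E20 B1, were 16.6 percentage points apart, and their exact 95% binomial intervals of 30.2% to 66.9% and 20.6% to 44.7% overlapped. The gap was 1.42 points without thinning, 2.25 with at least 10 counts and 0.461 with at least 5 counts after thinning. The exact 95% interval of the 0 of 11 cells in E19 B2 reaches up to 28.5%. Its summed level had a log2 fold change of −3.34 ± 1.62 (SE; edgeR adjusted p = 1.00). ENSMFAG00000003566 was positive in 35.1%, 32.3% and 39.4% of the day 17 cells and in 13.7%, 9.09%, 7.94% and 9.52% of the later ones, a gap of 18.5 points, which was 0.768 with at least 5 counts after thinning. The 9.09% of E19 B2 was 1 of 11 cells. The intervals of its nearest collections overlapped, at 16.7% to 51.4% in E17 B4 and 5.70% to 26.3% in E19 B1. Its summed level had a log2 fold change of −0.64 ± 0.93 (SE; edgeR adjusted p = 1.00).

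In the other direction ENSMFAG00000000111 was positive in 5.41%, 32.3% and 29.6% of the day 17 cells and in 60.8%, 45.5%, 58.7% and 71.4% of the later ones. Its gap of 13.2 points was between E17 B4 and E19 B2, whose shares rested on 10 of 31 and 5 of 11 cells. Without thinning its collections overlapped by 20.2 points. Its summed level had a log2 fold change of 2.25 ± 0.95 (SE; edgeR adjusted p = 1.00). ENSMFAG00000030825, also among the leading IDs by summed level, was positive in 43.2%, 51.6% and 45.1% of the cells on day 17 and in 64.7%, 72.7%, 71.4% and 61.9% later. The intervals of its nearest collections, E17 B4 and E20 B2, overlapped as well. The gap of 10.3 points was lost when a positive cell needed at least 5 counts after thinning, and the collections then overlapped by 19.0 points. In E19 B1 all 51 cells had at least 1 count of this ID before thinning, and the positive cells had a median of 14.7 CPM there, against 63.8 to 379 CPM in the other collections.

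**Figure D2:**
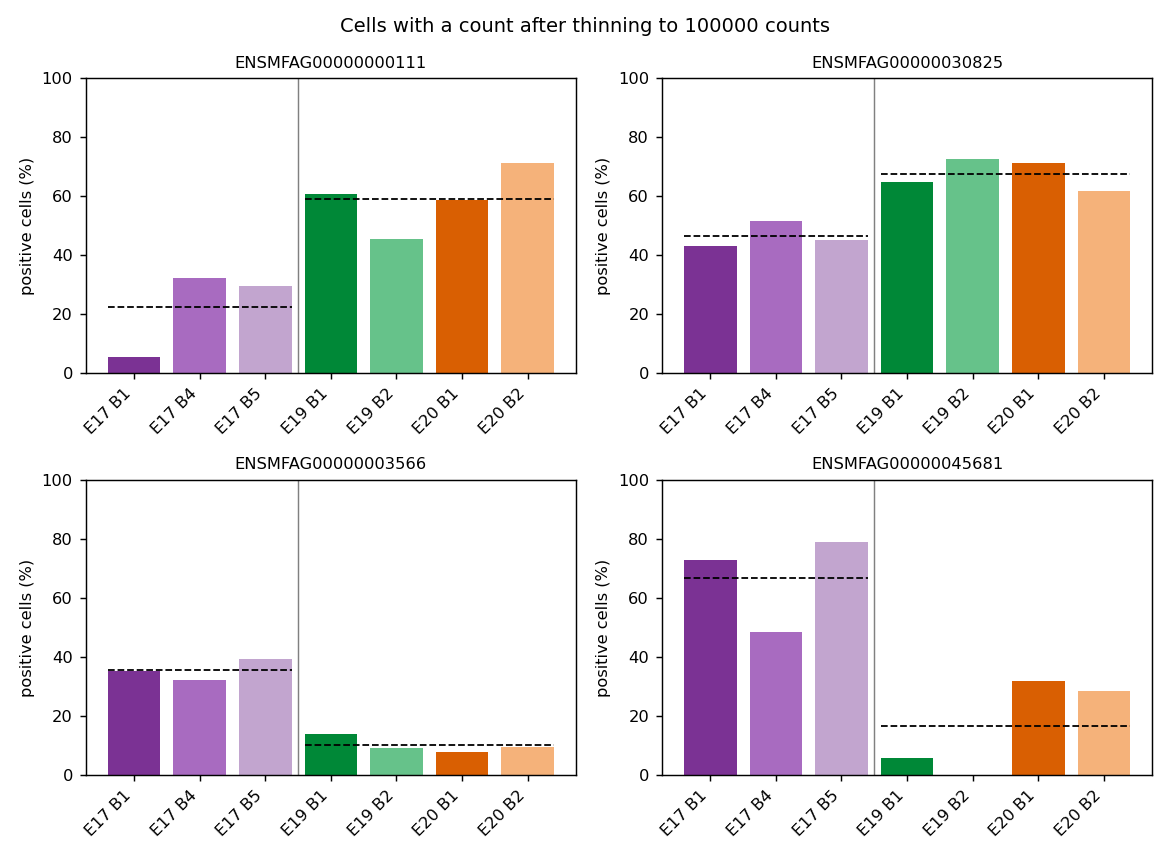
Percent of kept cells with at least 1 count after thinning each cell to 100000 counts, for the 2 IDs with the widest gap between the arms in each direction. Bars are collections, day 17 to the left of the grey line and days 19 and 20 to the right, and dashed lines are the means of the collections per arm. ENSMFAG00000003566 is between 32.3% and 39.4% on day 17 and between 7.94% and 13.7% later.

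Measures of the cells themselves overlapped between the arms. The IDs detected at 100000 counts averaged 4241 ± 1029 over the day 17 collections (SD of collection medians, n = 3) and 3274 ± 823 later (SD, n = 4), with an exact two-sided permutation p of 0.229 (0.686 after Benjamini-Hochberg adjustment over 4 measures). The number of IDs that together held 50% of a cell's counts was 188 ± 25.9 on day 17 and 136 ± 74.4 later (SD; exact permutation p = 0.343, adjusted 0.686). The most abundant ID took 4.12 ± 1.80% of a cell's counts on day 17 and 6.71 ± 4.92% later (SD; exact permutation p = 0.514, adjusted 0.686). The total count per cell averaged 2.94e+06 ± 2.57e+06 and 3.07e+06 ± 2.05e+06 (SD; exact permutation p = 0.971, adjusted 0.971). In all 4 measures the later collections spread over a range that took in at least 1 day 17 collection.

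The most abundant ID was ENSMFAG00000000004. It took on average 2.62%, 6.99% and 7.47% of a cell's counts in E17 B1, E17 B4 and E17 B5, and 17.0% in E19 B1, 6.31% in E19 B2, 10.9% in E20 B1 and 1.48% in E20 B2. The later arm thus held both the highest and the lowest collection. In single cells it reached 77.1% of the counts in E17 B4, 64.9% in E19 B1 and 72.4% in E20 B1, and it was the leading ID in 46 of the 51 cells of E19 B1 but in 6 of the 21 of E20 B2. The summed level had a log2 fold change of 1.18 ± 1.00 (SE; edgeR adjusted p = 1.00). Cells with over 20% of their counts in 1 ID made up 31.4% of E19 B1 and between 0% and 14.1% of the other collections, and without them edgeR again called 0 IDs both with and without E17 B1. ENSMFAG00000046421, the next in abundance, took 0.891%, 1.25% and 2.31% on day 17 and 2.03%, 0.708%, 2.19% and 0.364% later. The fold change of its sum was 0.35 ± 0.86 on the log2 scale (SE; edgeR adjusted p = 1.00).

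Distances between whole collections were taken as 1 minus Pearson's correlation of log2(CPM + 1) across the 14125 IDs, which are not independent replicates. They averaged 0.175 for the 3 pairs within day 17, 0.257 for the 6 pairs within the later arm and 0.208 for the 12 pairs between the arms. The later collections thus lay farther from each other than from day 17. E19 B2 was in the 3 widest pairs of the later arm, and without it the averages were 0.175 within day 17, 0.191 within the later arm and 0.178 between the arms. E20 B1 was nearest to E17 B1, at 0.134, and E17 B4 was nearest to E20 B1, at 0.164. The collections of day 19 were 0.364 apart and those of day 20 were 0.212 apart.

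**Figure D3:**
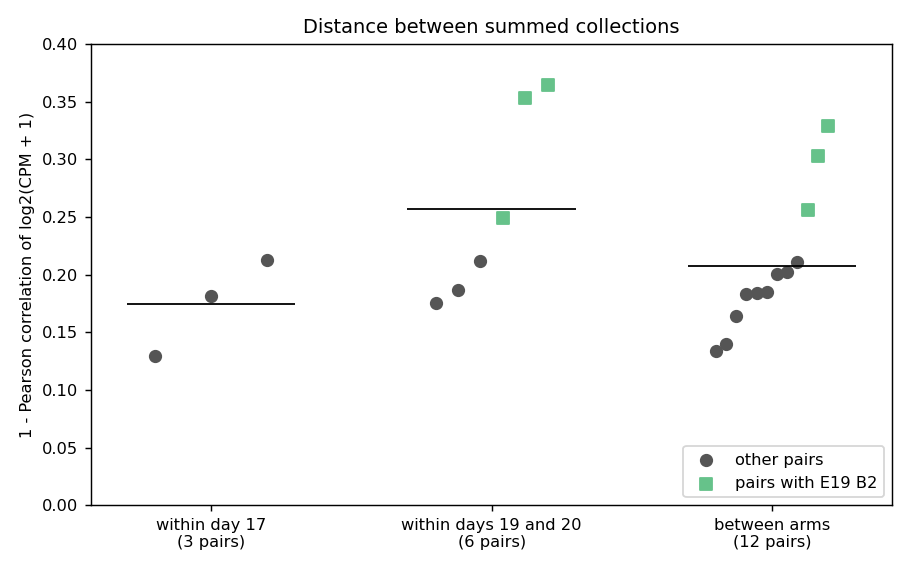
Distance (1 minus Pearson's correlation of log2(CPM + 1)) for each of the 21 pairs of summed collections, by kind of pair. Points and squares are pairs, squares mark the 6 pairs with E19 B2, and horizontal lines are the means of all pairs of a kind. Pairs between the arms, with a mean of 0.208, lie between those within day 17 (0.175) and those within days 19 and 20 (0.257).

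In each collection, cells had more neighbours from their own collection than the numbers of cells alone would give. Over 20 principal components of the 2000 most variable IDs, 64.2% of the 15 nearest neighbours of a cell came from its own collection, where the numbers of cells alone would give 17.6%. Among the neighbours from other collections, 37.8% came from the cell's own arm, against 41.1% from the numbers of cells. This share lay above that from the numbers of cells in E17 B1 (50.0% against 41.1%) and E19 B1 (51.7% against 40.6%), and below it in the other 5. The own collection gave 86.7% of the neighbours in E17 B1 and 85.9% in E17 B5, but 29.5% in E17 B4 and 25.4% in E20 B2. Cells of E17 B4 found 35.1% of their outside neighbours in E20 B1, and cells of E20 B2 found 32.8% of theirs in E17 B4, where numbers of cells alone would give 24.8% and 11.7%.

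**Figure D4:**
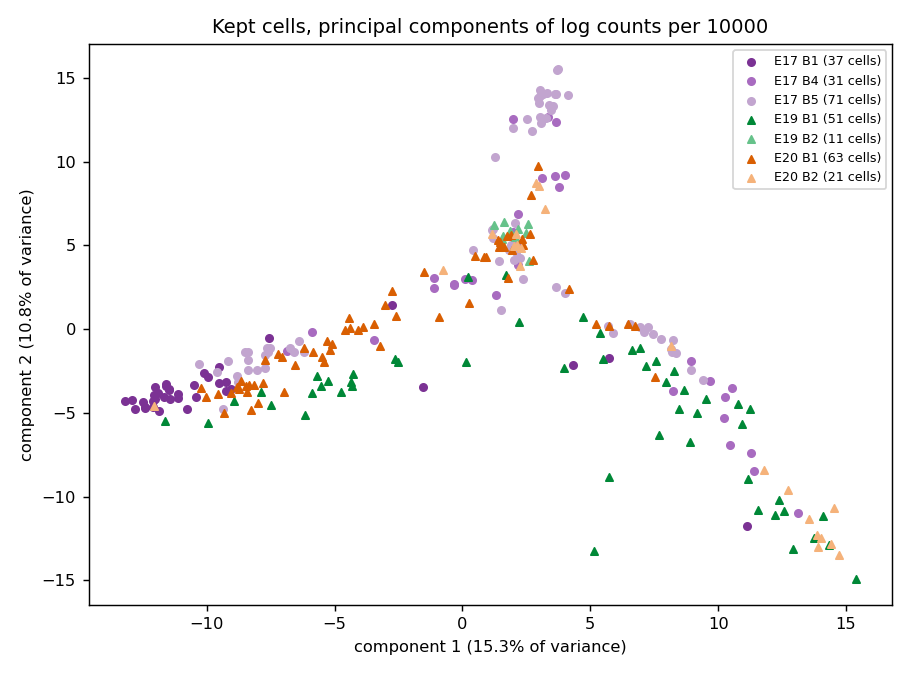
The 285 kept cells on the first 2 principal components of log counts per 10000, which hold 15.3% and 10.8% of the variance. Circles are day 17 cells, triangles are cells of days 19 and 20, and colours are collections. Cells of both arms overlap over much of the plane, and cells of several collections, E17 B5 among them, are spread over more than 1 area.

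E17 B1 was then set against E17 B4 and E17 B5 in a fit with all 7 collections, in which the lone collection is assumed to vary like the others. edgeR called 0 of 17215 IDs, 123 had an unadjusted p under 0.05 (0.714%; 36 higher and 87 lower in E17 B1; 861 by chance), and DESeq2 called 197 (1.14%). ENSMFAG00000029862 was at 333.5 CPM in E17 B1, 0.294 in E17 B4 and 0.176 in E17 B5, and at most at 0.339 in the later collections. ENSMFAG00000020465 was at 878 CPM in E17 B1, 0.221 in E17 B4 and 0.790 in E17 B5, and at most at 0.543 later. After thinning, each of these IDs was in 100% of the 37 cells of E17 B1. No single cell held more than 10.7% of either sum, so they marked the collection as a whole. Their log2 fold changes were 10.46 ± 1.44 (edgeR adjusted p = 0.504) and 10.76 ± 2.08 (edgeR adjusted p = 1.00; both SE), and the DESeq2 adjusted p values were 6.36e-14 and 0.000128.

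In the other direction, ENSMFAG00000007179 had 0 counts in E17 B1, 128 CPM in E17 B4 and 14.2 CPM in E17 B5. Against a floor of 3 counts in E17 B1 it was at least 1053-fold lower than in the other day 17 collections pooled. With E17 B4 left out it was at least 186-fold lower than in E17 B5. Both bounds cover counting error only, not the spread of counts over cells. After thinning it was in 0 of 37 cells of E17 B1, which allows a share of up to 8.11%. It was positive in 29.0% of E17 B4 and 26.8% of E17 B5. The later collections held it at 97.2, 28.4, 33.8 and 115 CPM. ENSMFAG00000038912 was at 3.21 CPM in E17 B1, 122 in E17 B4 and 80.9 in E17 B5, and between 37.5 and 57.0 later. E17 B1 differed by a log2 fold change of −4.98 ± 1.26 (SE; edgeR adjusted p = 1.00). For both IDs E17 B1 lay apart from the later collections as well as from its own day.

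Days 19 and 20 were also separated, in a fit with the 3 days as groups over 15516 IDs. Between day 19 and day 20 edgeR called 0 IDs, 572 had an unadjusted p under 0.05 (3.69%; 468 higher and 104 lower on day 20; 776 by chance), and DESeq2 called 606 (3.91%). DESeq2 had 1069 higher and 467 lower at an unadjusted p under 0.05. ENSMFAG00000042336 was at 0.0442 CPM in E19 B1 and 0.205 in E19 B2, from 6 and 3 counts, and at 29.0 in E20 B1 and 62.6 in E20 B2. On day 17 it was at 30.3, 154 and 54.5 CPM, so that both day 19 collections stood apart from the other 5. After thinning it was positive in 48.65%, 38.71% and 33.8% of the cells on day 17. On day 19 it was positive in 0% of both collections, and on day 20 in 28.57% and 19.05%. Its log2 fold change from day 19 to day 20 was 8.79 (SE 1.5; edgeR adjusted p = 0.803). With no filter on low counts its edgeR adjusted p was 0.0399, and DESeq2 gave an adjusted p of 1.01e-08. ENSMFAG00000000456 had the same order, at 1.32 and 2.26 CPM on day 19, 151 and 60.5 on day 20, and 194, 247 and 72.0 on day 17. The difference was 5.90 ± 1.04 on the log2 scale (SE; edgeR adjusted p = 0.803), and 1 cell held 69.4% of its counts in E20 B1 and 85.4% in E20 B2. For this ID the adjusted p was 0.08 in edgeR with no filter and 4.8e-07 in DESeq2.

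Both IDs named as lower on day 20 were high in E19 B1 alone. ENSMFAG00000003428 was at 394 CPM in E19 B1, 4.51 in E19 B2 and at most at 4.22 in the other 5. Its log2 fold change from day 19 to day 20 was −7.08 ± 1.91 (SE), and −1.61 ± 2.33 without E19 B1. ENSMFAG00000002889 was at 884 CPM in E19 B1, had 0 counts in E19 B2, E20 B1, E20 B2 and E17 B1, and was at 1.38 and 1.14 CPM in E17 B4 and E17 B5. A single cell of E19 B1 held 79.8% of the ID's counts there, at 17860 CPM. All 51 cells of that collection had at least 1 count of it, and 21.6% had at least 5 after thinning. Its positive cells there had a median of 15.98 CPM. All 51 cells also had a count of ENSMFAG00000003428 and ENSMFAG00000030825, with medians of 9.85 and 14.7 CPM in positive cells. Where such low counts came from was not tested. With a floor of 3 counts over both day 20 collections, ENSMFAG00000002889 was at least 96088-fold below the pooled day 19 counts. That bound too covers counting error only. After thinning the ID was positive in 66.7% of the cells of E19 B1. It was in no cell of E19 B2, E20 B1 and E20 B2, which allows up to 27.3%, 4.76% and 14.3%. Its adjusted p was 0.978 in edgeR and 6.9e-16 in DESeq2. The fold too rested on E19 B1, without which day 19 held no count of the ID.

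**Figure D5:**
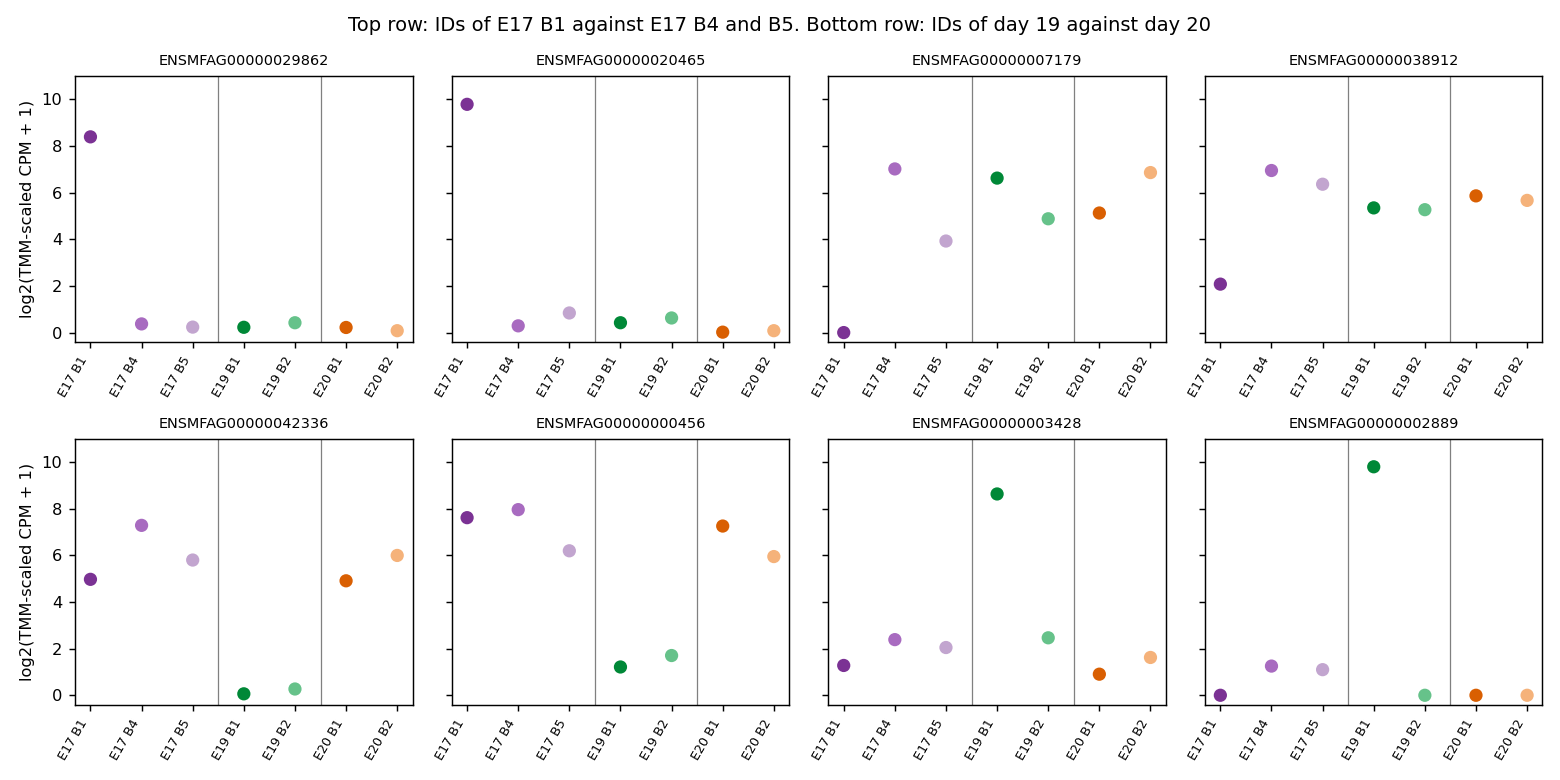
Summed level, as log2(TMM-scaled CPM + 1), of the 4 IDs of E17 B1 against E17 B4 and E17 B5 (top row) and of the 4 IDs of day 19 against day 20 (bottom row). Points are collections, and grey lines part days 17, 19 and 20. ENSMFAG00000029862 and ENSMFAG00000020465 are high in E17 B1 alone, ENSMFAG00000003428 and ENSMFAG00000002889 in E19 B1 alone, and ENSMFAG00000042336 and ENSMFAG00000000456 are low in both collections of day 19.

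The separate comparisons of day 17 with each later day share the day 17 collections, so their values stand side by side. Against day 19 edgeR called 0 IDs, 673 had an unadjusted p under 0.05 (4.34%; 123 higher and 550 lower on day 19; 776 by chance), and DESeq2 called 721 (4.65%). Against day 20 edgeR called 0 IDs, 203 had an unadjusted p under 0.05 (1.31%; 75 higher and 128 lower on day 20; 776 by chance), and DESeq2 called 149 (0.96%). ENSMFAG00000032414 led the higher IDs on both days, with log2 fold changes of 4.29 ± 1.07 on day 19 and 4.00 ± 1.06 on day 20 (SE; edgeR adjusted p = 0.869 and 1.00). Without E19 B2 its day 19 value was 1.35 ± 0.86 (SE).

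The next higher ID on day 19 was ENSMFAG00000003428, described above, with 6.09 ± 1.53, and 0.61 ± 2.21 without E19 B1 (SE). Of the lower IDs on day 19, ENSMFAG00000043119 had 0 counts in both collections of that day, 9.20, 104 and 109 CPM on day 17, and 15.0 and 14.3 CPM on day 20. With a floor of 3 counts over day 19, it was at least 4801-fold below the pooled day 17 counts (edgeR adjusted p = 0.533). That bound covers counting error only, not the spread of counts over cells. After thinning, 27.0%, 25.8% and 45.1% of the cells of E17 B1, E17 B4 and E17 B5 were positive for it. It was in 0 of 51 cells of E19 B1 and 0 of 11 of E19 B2. These zeros allow shares of up to 5.88% and 27.3%, so by cells the ID has no bound of that size. Its adjusted p was 0.00759 in edgeR with no filter on low counts and 3.21e-11 in DESeq2. ENSMFAG00000042336 had a log2 fold change of −9.59 ± 1.53 on day 19 (SE; edgeR adjusted p = 0.533). With no filter its edgeR adjusted p was 0.0157, and DESeq2 gave an adjusted p of 8.12e-12. Both IDs had counts in every collection of days 17 and 20.

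On day 20, ENSMFAG00000039774 was at 242 CPM in E20 B1 and 553 in E20 B2, against 82.2, 71.3 and 39.3 CPM on day 17. The day 19 collections held it at 286 and 81.5 CPM, and E19 B2 thus lay just below E17 B1. The log2 fold change to day 20 was 2.63 ± 0.78 (SE; edgeR adjusted p = 1.00). ENSMFAG00000040755 was at 548, 185 and 289 CPM on day 17, 149 and 35.2 on day 19, and 50.9 and 65.9 on day 20, with a log2 fold change to day 20 of −2.54 ± 0.89 (SE; edgeR adjusted p = 1.00). All day 17 collections lay above all later ones in this ID, with E17 B4 and E19 B1 the nearest. The other lower ID on day 20 was ENSMFAG00000020465, the ID of E17 B1 given above, whose log2 fold change of −13.06 ± 4.11 was −3.83 ± 2.94 without that collection (SE; edgeR adjusted p = 1.00 in both).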

How the data were processed

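Reads were processed with STAR 2.3.4 and RSEM, per the submitters' processing notes. The genome build and the annotation were not given in the sources used here. Estimated counts per ID were deposited by the authors without normalisation. Of the values in kept cells 2.18% were fractional, or 9.52% if zeros are left aside (tolerance 1e-06), and they were rounded before any count test. SMART-seq2 carries no molecular identifiers, so intervals and floors cover counting error only.

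Counts were summed per collection over cells with at least 100000 counts and 2000 IDs, since cells are not replicates. edgeR 4.0.16 in R 4.3.3 gave the main results, with TMM factors, its filterByExpr rule, the quasi-likelihood test and Benjamini-Hochberg adjusted p under 0.05. Fold changes are later minus earlier. DESeq2 1.42.0 and limma 3.58.1 on log2(CPM + 1) were alternatives. Shares of positive cells were taken after thinning each cell to 100000 counts (seed 1), and exact tests used scipy 1.17.1. No doublet caller was run, since cells were picked by hand. The scripts were tested on simulated data. IDs named were at most 2 higher and 2 lower per comparison: calls with a log2 fold change of at least 1 and a mean log2 CPM of 5 or more, ranked by fold, or failing that the smallest unadjusted p (for the arms, with no overlap). For shares they were the widest gaps, and for abundance the 2 highest mean shares. The collections and lists were chosen with earlier results of these data known.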

Additional observations from a re-analysis of the deposited data

Results flagged for a closer look

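One value stood apart in a Dixon test at the 95% level among the 4 later collections. The number of IDs that hold 50% of a cell's counts had a median of 247 in E20 B2, against 91, 104 and 101 in E19 B1, E19 B2 and E20 B1. Of 14 sets of values looked at in this way 1 stood apart, and chance gives about 1 in 20.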

How the results depend on the processing

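edgeR's count of 0 called IDs held in every comparison with RLE factors and with each collection left out. DESeq2 called 26 IDs between the arms, 101 without E17 B1, 721 for day 17 against day 19, 149 for day 17 against day 20, 606 for day 19 against day 20 and 197 for E17 B1 against the rest of its day. With no filter on low counts edgeR called 14 IDs for day 17 against day 19 and 7 for day 19 against day 20. ENSMFAG00000042336 was among both, and ENSMFAG00000043119 among the 14. The cause was not tested. Unadjusted p under 0.05 between the arms numbered 203 in all, 412 without E17 B4, 330 without E19 B2 and 368 without E20 B1. The difference in total count per cell, 1.35e+05 with all collections, ran from −9.03e+05 without E17 B1 to 1.57e+06 without E17 B4 and was below 0 in 4 of 7 such settings (−2.61e+05 without E17 B5, −5.38e+05 without E20 B1, −2.98e+05 without E20 B2). IDs with higher shares of positive cells later were 81 without thinning, 33 with at least 10 counts, 31 with at least 5 after thinning, and 41 to 177 with 1 collection left out. Those with lower shares were 337 with at least 10 counts and 799 to 4078 without a day 17 collection, and 619 to 1333 without a later one. The gaps of ENSMFAG00000000111 without thinning (−20.23 points) and ENSMFAG00000030825 with at least 5 counts after thinning (−18.98 points) reversed. The removal of cells with over 20% of counts in 1 ID, the minimum of 5 counts and leaving out collections other than E17 B1 for the shares were chosen after seeing the data.

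Days 19 and 20 both have B1 and B2, and the labels do not say that the number marks a shared source. With the B number as a replicate block on those 4 collections edgeR called 0 IDs, as without it, with 53 against 541 IDs at an unadjusted p under 0.05. Deviations of collections with the same number had a correlation of −0.157 across 15544 IDs, and with the numbers crossed 0 IDs were called. ENSMFAG00000002889 could not be tested in these fits. No paired analysis was possible between the arms because they share only B1. The fewest cells (11) and counts, in E19 B2, limit every value that rests on its zeros.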
